A study of Mus musculus with 3 samples.

Results

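Calretinin-positive immature neurons of the mouse dentate gyrus were 130 of 196 immature neurons and of 1876 cells used, in 3 single-cell RNA libraries. They were chosen by their transcripts. A barcode was used when it had at least 200 detected genes and less than 10% of its unique molecular identifiers (UMIs, which count captured mRNA molecules) in mitochondrial genes. An immature neuron had at least 2 UMIs of Sox11, at least 1 detected gene of Dcx, Igfbpl1, Neurod1, Tac2, Sema3c and Cd24a, and fewer than 2 detected genes of the Cajal-Retzius set Reln, Ndnf, Lhx1, Lhx5, Trp73 and Nhlh2. The Calb2-positive cells had at least 1 Calb2 UMI, and the other 66 immature neurons, with none, were the cells they were set against. Sox11, Calb2 and these 12 genes were the basis of the selection, so their levels are described here and support nothing.

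The libraries came from dissected dentate gyri, and each group was 1 library. The control library was from 8-week-old mice in standard housing, the runner library from littermates with 12 days of access to a running wheel, and the aged library from 14-month-old mice without a wheel. The strain label of all 3 is hGFAP-eGFP, a reporter line in which the human GFAP promoter drives enhanced green fluorescent protein in astrocytes and radial glia-like stem cells. The design text calls the mice WT and names hGFAPeGFP for the aged animals. How many mice were pooled is not stated in the labels, and no sort for green cells is described. With 1 library per group there was no test between groups, and the intervals in this text are 95% intervals that cover counting error only. The runner library held 120 of the Calb2-positive cells, and the control and aged libraries 5 each.

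New granule neurons are made in the dentate gyrus through adult life. Radial glia-like stem cells give rise to dividing intermediate progenitors, then to neuroblasts that express doublecortin (Dcx), and after the last division to immature neurons that express calretinin for a short time before they mature and switch to calbindin. Calb2 encodes calretinin, a cytosolic protein with EF-hand motifs that buffers calcium. Tac2 encodes the precursor of neurokinin B, a tachykinin peptide. The basic helix-loop-helix factors of the Neurod family act in sequence in neuronal differentiation, with Neurod1 acting early and Neurod2 and Neurod6 in later, postmitotic neurons. In the GENCODE M21 annotation of GRCm38, the build the submitters named, Calb2 lies at chr8:110137502-110168210 on the minus strand.

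Neurod2 and Neurod6 were among the 12 genes that stood highest in the Calb2-positive cells. Tac2 is a gene of the rule, was left out of that ranking and is described only. The 250 bases before the starts of Neurod2, Neurod6 and Tac2 are shown as a description. The sequences are from RefSeq on GRCm38.p6, in the direction of the gene. Capitals mark the E-box CANNTG, the general binding motif of basic helix-loop-helix factors, which reads the same on both strands. The window of Neurod2 is chr11:98329646-98329895 on the minus strand, that of Neurod6 is chr6:55681264-55681513 on the minus strand, and that of Tac2 is chr10:127724228-127724477 on the plus strand.
Neurod2: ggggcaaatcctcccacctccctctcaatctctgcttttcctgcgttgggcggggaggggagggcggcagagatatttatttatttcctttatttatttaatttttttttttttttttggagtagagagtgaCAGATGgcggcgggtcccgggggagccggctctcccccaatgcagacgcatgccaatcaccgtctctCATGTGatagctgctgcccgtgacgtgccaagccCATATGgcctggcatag
Neurod6: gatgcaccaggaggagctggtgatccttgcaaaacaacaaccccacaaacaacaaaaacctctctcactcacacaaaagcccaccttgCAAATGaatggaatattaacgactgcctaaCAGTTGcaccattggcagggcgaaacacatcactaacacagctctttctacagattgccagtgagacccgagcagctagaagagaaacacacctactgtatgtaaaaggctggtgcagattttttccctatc
Tac2: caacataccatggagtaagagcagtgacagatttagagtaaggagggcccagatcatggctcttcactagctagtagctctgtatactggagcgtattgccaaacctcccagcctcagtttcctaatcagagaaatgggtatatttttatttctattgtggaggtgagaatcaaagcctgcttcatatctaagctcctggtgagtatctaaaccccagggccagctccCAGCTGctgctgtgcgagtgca
The Neurod2 window held 3 E-boxes, the Neurod6 window 2 and the Tac2 window 1. An E-box was present in 66.2% of the 32851 RefSeq promoter windows of this length, at least 2 in 31.8% and at least 3 in 12.2%. A match of these letters is a description and shows no binding.

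The cells used numbered 514 in the control, 969 in the runner and 393 in the aged library, with median depths of 1457, 1754 and 1413 UMIs. Between 8 and 10 barcode sequences were shared by each pair of libraries, and no immature neuron was among them. Calb2-positive cells had medians of 1689 UMIs in control, 2036.5 in runner and 1814 in aged. The Calb2-negative immature neurons had medians of 1475, 1954 and 1765 UMIs. Within each library both sets were thus of like depth, and runner cells were deeper than control cells.

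The Calb2-positive share of immature neurons was 18.5% in the control library (5 of 27, exact Clopper-Pearson interval 6.30% to 38.1%). It was 75.5% in the runner library (120 of 159, 68.0% to 81.9%) and 50.0% in the aged library (5 of 10, 18.7% to 81.3%). The runner share was 57.0 percentage points above the control share (Newcombe interval 37.4 to 68.9). When each cell was thinned to 1000 UMIs, which left out 3 control, 3 runner and 2 aged cells, the shares were 12.5%, 59.6% and 25.0%, and the runner share was 47.1 points above control (27.0 to 58.1). The aged share was 31.5 points above control with an interval from -0.52 to 59.8, and 12.5 points above it after thinning (-13.2 to 47.5). The runner and control libraries differed by more than counting error at both depths, and the aged library could not be placed above or below control at this depth. As a share of all cells used, Calb2-positive cells were 0.973% in control (0.317% to 2.26%), 12.4% in runner (10.4% to 14.6%) and 1.27% in aged (0.414% to 2.94%). How far animals of 1 group differ from each other in these shares was not measured.

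**Figure D1:**
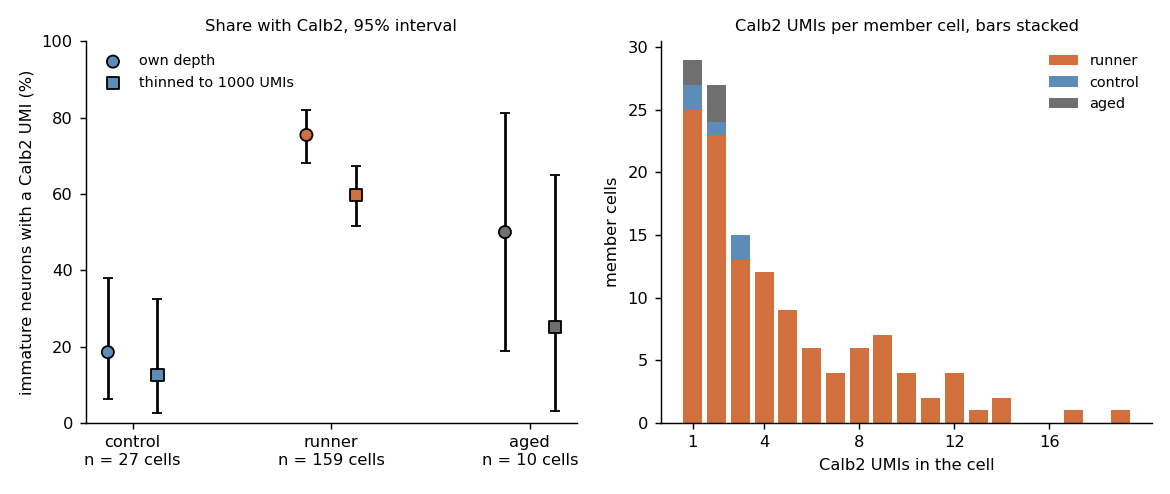
Left, the percentage of immature neurons with a Calb2 UMI in each library, at the cells' own depth (circles) and thinned to 1000 UMIs (squares), with exact 95% intervals; right, the number of member cells at each Calb2 UMI count, stacked by library. The runner interval lies above the control interval at both depths, and the cells with more than 3 Calb2 UMIs are all from the runner library.

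Calb2 itself was present at low counts in most members. The 5 control cells held 1, 1, 2, 3 and 3 Calb2 UMIs, and the 5 aged cells 1, 1, 2, 2 and 2. The 120 runner cells ranged from 1 to 19 with a median of 3, and 565 Calb2 UMIs were counted in all. Of the runner cells, 25 held exactly 1 UMI, just inside the limit, 48 held 2 to 4 and 47 held 5 or more. Just outside lay the 39 runner cells with none, in which a summed count of 0 allows up to 45.2 Calb2 CPM (the UMIs of a gene divided by all UMIs of its set, as counts per 1000000). At the Sox11 limit, 14 of 17 runner cells with exactly 2 Sox11 UMIs had Calb2, and 8 of 14 runner cells with 1 Sox11 UMI, outside the rule, had it.

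Calb2 reads in microglia were taken as a guide to the level that free RNA could give. In cells with at least 5 of 10 microglia genes, a type that should lack calretinin, 2 of 248 control cells had a Calb2 UMI (0.806%), 3 of 364 runner cells (0.824%, 0.170% to 2.39%) and 1 of 203 aged cells (0.493%). Their median depths were 1481, 1583 and 1413 UMIs. The shares in immature neurons were above these in all 3 libraries. The median depths of the immature neurons were 1480, 2014 and 1789.5 UMIs, so those of runner and aged were deeper than the microglia. The part of free RNA in the members, some of which held only 1 Calb2 UMI, was not tested. In the cells that were neither immature neurons, microglia nor Cajal-Retzius cells, Calb2 was detected in 2 of 192 control cells (1.04%), 15 of 371 runner cells (4.04%) and 3 of 148 aged cells (2.03%). Cajal-Retzius cells, which are known to express calretinin, had Calb2 in 10 of 47 control cells (21.3%), 24 of 75 runner cells (32.0%) and 1 of 32 aged cells (3.13%). No cell that met the Sox11 and immature-gene limits carried 2 or more Cajal-Retzius genes in any library, so that exclusion removed none.

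Each of the 6 immature-neuron genes of the rule was detected in most runner members, and not all 6 in the control or aged members. In the 120 runner cells, Neurod1 was detected in 86.7%, Cd24a in 79.2%, Sema3c in 72.5%, Dcx in 65.8%, Igfbpl1 in 64.2% and Tac2 in 72 of the 120. At least 3 of these 6 genes were detected in 113 of the 120 cells, against 24 of the 39 Calb2-negative cells. Among the 5 control members, Neurod1 was detected in 5, Cd24a in 4, Igfbpl1 in 3, Dcx in 2, Sema3c in 1 and Tac2 in 0. Among the 5 aged members, Neurod1 and Sema3c were detected in 4 each, Dcx in 3, Cd24a in 2, and Tac2 and Igfbpl1 in 0. The aged count table does not list Tac2 or Igfbpl1 for any cell. All 6 genes were detected in 14 of the 120 runner members, with a median of 4 per cell, and in no control or aged member. As genes of the selection they describe the cells and do not test the label.

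Tac2 was higher in the Calb2-positive than in the Calb2-negative runner cells. It was at 1658 CPM (1499 to 1828) in the Calb2-positive cells and 392 CPM (268 to 554) in the Calb2-negative cells, a ratio of 4.23 (2.95 to 6.26), and of 2.71 (1.88 to 4.05) among cells with fewer than 2 proliferation genes, defined with the comparison of all genes. Per cell, the Calb2-positive cells held 0 to 20 Tac2 UMIs with a median of 2, and the Calb2-negative cells 0 to 11 with a median of 0. With membership kept and every cell thinned to 1000 UMIs, Tac2 was detected in 54.7% of the Calb2-positive cells (45.2% to 63.9%) and 23.1% of the Calb2-negative cells (11.1% to 39.3%). When Calb2 was called again on the thinned counts, the shares were 57.0% (53 of 93, 46.3% to 67.2%) and 36.5% (23 of 63, 24.7% to 49.6%), and the intervals overlapped. In runner microglia the share was 0.549% (2 of 364), and in the remaining runner cells outside the Cajal-Retzius cells it was 1.89% (7 of 371). Tac2 was thus frequent but not universal in the members. In the Cajal-Retzius cells it was detected in 0 of 47 control and 0 of 75 runner cells, which allows shares of up to 7.55% and 4.80%.

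The other genes of the rule spread on both sides of the 1.5-fold limit in the runner library. Cd24a, a glycoprotein of young neurons, had a ratio of 2.60 (1.77 to 3.94), the secreted semaphorin gene Sema3c 2.03 (1.37 to 3.1) and Neurod1 2.02 (1.48 to 2.80). Dcx, the microtubule-binding marker of neuroblasts, had a ratio of 1.34 (0.922 to 1.98), and Igfbpl1 a ratio of 1.24 (0.855 to 1.85). Sox11, a SoxC transcription factor of newborn neurons, was at 3105 CPM in the Calb2-positive and 3174 CPM in the Calb2-negative cells, a ratio of 0.978 (0.848 to 1.13). Sox11 per cell ran from 2 to 18 UMIs with a median of 6 in the positive cells, and from 2 to 17 with a median of 7 in the negative cells.

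The question of how Calb2-positive immature neurons differ from the rest was taken up in the runner library, where both sets were large enough. UMIs were summed over the cells of each set, and genes with at least 30 UMIs in the 2 sets together were compared by the ratio of their CPM with an exact conditional binomial interval. Of 1848 such genes, 291 (15.7%) were at least 1.5-fold higher in the Calb2-positive cells and 271 (14.7%) at least 1.5-fold lower. The limit is a rule of size and not a test, since the cells of 1 library are not replicates. The positive set held 242525 UMIs and the negative set 81610. A sparse gene could therefore reach the minimum of 30 UMIs more easily through the positive cells, which favours upward ratios among sparse genes. The median log2 ratio of all 1848 genes was -0.03. Ribosomal protein genes (94 tested, median log2 -0.14) had 2 genes past the limit upward and 1 downward, and none of the 12 mitochondrial genes tested was past it.

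Proliferation differed between the 2 sets, and it bears on each gene group given here. At least 2 of 26 proliferation genes were detected in 9 of 120 Calb2-positive cells (7.50%, 3.49% to 13.8%) and in 11 of 39 Calb2-negative cells (28.2%, 15.0% to 44.9%), a difference of -20.7 points (-36.7 to -7.53). At 1000 UMIs per cell the shares were 2.56% and 15.4%. The summed level of the 26 genes was 252 CPM in the positive and 2683 CPM in the negative cells, a ratio of 0.09 (0.07 to 0.13), and 12 of the 26, Ccnb1, Cenpa, Birc5 and Plk1 among them, were at 0 in the positive cells. Top2a, the topoisomerase of dividing cells, had 1 UMI against 19, and Ube2c, a mitotic ubiquitin-conjugating enzyme, 1 against 22. Mki67 was an exception in size, with 19 UMIs against 12 and a ratio of 0.533 (0.246 to 1.20). The comparison was therefore repeated among the 111 positive and 28 negative cells with fewer than 2 of these genes, a choice made after the data were seen. They are called non-cycling cells here, although cells with 1 detected proliferation gene were kept. The value of the repeated comparison stands beside a ratio that it moved by over 1.5 times or across the limit. Sox2, Fabp7, Thrsp, Aldoc, Mki67, Pclaf, Tipin, Dek, Dtymk and Knop1 had fewer than 30 UMIs there and were not compared. There, 240 of 1535 genes (15.6%) were at least 1.5-fold higher and 214 (13.9%) at least 1.5-fold lower.

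**Figure D2:**
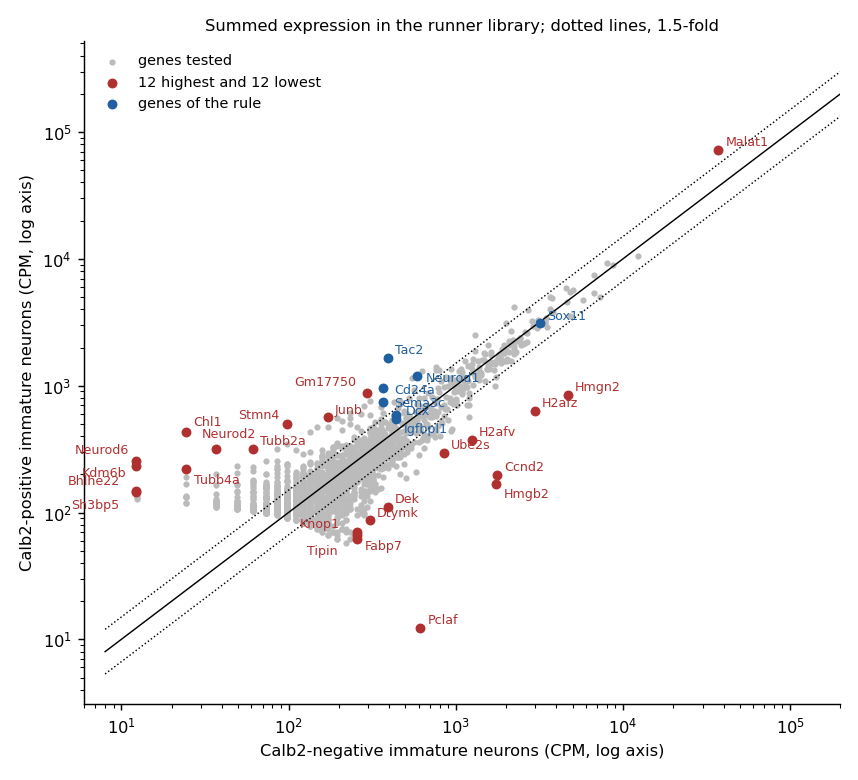
Summed expression (CPM) of 1847 genes in Calb2-positive (vertical) against Calb2-negative (horizontal) runner cells on log axes, without Calb2. Chl1, Neurod6 and Neurod2 lie above the upper dotted 1.5-fold line, Hmgb2 and Ccnd2 below the lower one, and Pclaf, with 0 UMIs in the positive cells, is drawn at the floor of 3 UMIs.

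The 12 genes that stood highest in the Calb2-positive cells by the bound of their interval included genes of neuronal adhesion, of microtubules and of late neuronal transcription factors. Chl1, a neural cell adhesion molecule of the L1 family, was detected in 58.3% of the positive and 5.13% of the negative cells. Its 105 UMIs against 2 gave 433 and 24.5 CPM, a ratio of 17.7 (4.77 to 148), and it stayed high among non-cycling cells at 20.3 (3.55 to 810). Kdm6b, a histone H3K27 demethylase, was at 231 against 12.3 CPM, a ratio of 18.8 (3.25 to 757), and of 12.3 (2.12 to 495) among non-cycling cells. The microtubule genes Stmn4, Tubb4a and Tubb2a had ratios of 5.09, 8.92 and 5.18. Junb, an immediate early transcription factor, had a ratio of 3.29 (1.90 to 6.18), and the nuclear noncoding RNA Malat1 was at 72244 against 37177 CPM, a ratio of 1.94 (1.87 to 2.02). Sh3bp5, with 35 UMIs against 1, and the noncoding gene Gm17750, at 2.96 (1.93 to 4.72), completed the set with the factors Neurod2, Neurod6 and Bhlhe22. Among non-cycling cells Sh3bp5 had no UMI in the negative cells. A floor of 3 UMIs there gave a ratio of 2.35 as a lower bound, and the interval began at 1.80 with no upper limit. Ratios resting on 1 to 3 UMIs in the negative cells have wide intervals, and their size is poorly known.

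Of the 17 measured transcription factors of new granule neurons, 5 were at least 1.5-fold higher, 1 was lower and 11 lay within the limit, beside 15.7% higher and 14.7% lower over all genes. Their median log2 ratio was 0.40, and 0.19 among non-cycling cells. Neurod2, at 317 CPM (251 to 397) in the positive and 36.8 CPM (7.58 to 107) in the negative cells, had a ratio of 8.64 (2.85 to 42.8), and of 5.24 (1.72 to 26) among non-cycling cells. It was detected in 40.8% of the positive and 5.13% of the negative cells. Neurod6 had 62 UMIs in 34.2% of the positive cells and 1 UMI in the negative cells, a ratio of 20.9 (3.61 to 837). Among non-cycling cells Neurod6 had no UMI in the negative cells. A floor of 3 UMIs there gave 4.40 as a lower bound, and the interval began at 3.47 with no upper limit. The value of 4.40 is therefore no sign of a fall from 20.9. Bhlhe22, a further helix-loop-helix factor, had 36 UMIs against 1, a ratio of 12.1 (2.04 to 492) and of 7.74 (1.30 to 315) among non-cycling cells. With the 3 libraries summed its ratio was 1.45, within the limit.

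Prox1, the homeobox gene that sets granule cell identity, was at 602 CPM (508 to 708) in the positive cells and 270 CPM (169 to 408) in the negative cells, a ratio of 2.23 (1.42 to 3.67) and of 1.88 (1.12 to 3.38) among non-cycling cells. Id2, an inhibitor of helix-loop-helix factors, had a ratio of 1.65 (1.19 to 2.31), and of 1.49 (1.02 to 2.25) among non-cycling cells. Lhx2, a LIM homeobox gene of the cortical primordium, was the lower member at 0.608 (0.385 to 0.975). The abundant factors Sox4, Tcf4 and Nfix differed little, with ratios of 1.04, 1.02 and 0.935, and Nfib and Zbtb20 had 1.44 (1.25 to 1.68) and 1.36 (1.20 to 1.55). Prox1 was detected in 64.2% of the Calb2-positive and 41.0% of the Calb2-negative cells.

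Among microtubule and growth cone genes, 12 of 29 measured members were at least 1.5-fold higher, 2 lower and 15 within the limit. Over all genes the shares were 15.7% higher and 14.7% lower. The median log2 ratio of the list was 0.37. Among non-cycling cells the counts were 8 and 2, beside 15.6% and 13.9% over all genes, and the median was 0.14. Mapt, which encodes tau, had a ratio of 4.49 (1.43 to 22.7), the growth cone protein gene Gap43 3.70 (1.49 to 11.8) and the microtubule-associated protein gene Map1b 2.86 (1.70 to 5.15). Basp1, Stmn2 and Rtn1 had ratios of 2.47, 2.16 and 2.08, with Stmn2 at 1.35 (0.817 to 2.37) among non-cycling cells. The neuronal tubulin genes Tubb2b and Tubb3 had 1.92 (1.56 to 2.38) and 1.85 (1.40 to 2.46), and Tubb3 was nearer 1 among non-cycling cells, at 1.30 (0.977 to 1.76). Stmn1, the stathmin of dividing and newborn cells, was lower by less than the limit, at 0.814 (0.731 to 0.908). Tuba1b had a ratio of 0.474 (0.324 to 0.698) in all cells and 1.24 (0.647 to 2.62) among non-cycling cells, where its direction turned.

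Few adhesion and synaptic genes could be measured. Of 23 adhesion and guidance genes 3 were, and all 3 were past the limit upward in all cells (15.7% over all genes) and 2 of the 3 among non-cycling cells. Plxna2, a semaphorin receptor, had a ratio of 3.81 (1.20 to 19.4), and of 7.29 (1.22 to 297) among non-cycling cells. Ncam1 and Tenm4 were both at 1.63, with intervals of 1.14 to 2.38 and 0.713 to 4.37, and at 1.49 and 2.58 among non-cycling cells. Of 6 measured glutamate receptor and vesicle genes, 4 were at least 1.5-fold higher and none lower, beside 15.7% and 14.7% over all genes. Their median log2 ratio was 1.08, and 0.75 among non-cycling cells. Gria2, an AMPA receptor subunit, was at 755 against 306 CPM, a ratio of 2.46 (1.62 to 3.91), and was detected in 76.7% of the positive and 38.5% of the negative cells. The NMDA receptor subunit gene Grin2b had a ratio of 2.40 (1.08 to 6.28), and of 1.56 (0.703 to 4.09) among non-cycling cells, and Vamp2, a synaptic vesicle gene, 1.87 (0.973 to 3.93). Of the GABA-A receptor and chloride transporter genes only Gabra2 could be measured, at 2.24 (0.945 to 6.47), and 1.44 (0.605 to 4.18) among non-cycling cells.

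Members of the remaining neuronal lists were mostly too sparse to compare. Of 18 mature granule neuron genes only Ppp3ca and Cplx2 reached 30 UMIs, with ratios of 1.75 (0.999 to 3.27) and 1.04 (0.730 to 1.51), and Calb1, the calbindin gene of mature granule cells, had no UMI in the 120 runner cells. Of the immature granule neuron list, Nnat had a ratio of 1.88 (1.60 to 2.21), or 1.45 (1.21 to 1.74) among non-cycling cells, and Fxyd6 1.34 (0.917 to 2.00). Beside the counts that follow, 15.7% of all genes were past the limit upward and 14.7% downward. Among calcium-binding proteins other than calretinin, 1 of 4 measured was past the limit, Calm2 at 1.55 (1.31 to 1.84). Among neuropeptide and processing genes it was 1 of 4, Pcsk1n at 1.84 (1.15 to 3.09), or 1.42 (0.846 to 2.53) among non-cycling cells, and Tacr3, the receptor of neurokinin B, was at 0. RNA-binding protein genes were divided, with 3 of 10 higher and 4 lower and a median log2 ratio of -0.19, which turned to 0.18 when cells were thinned. Celf4 and Celf2 were higher at 2.48 (1.18 to 6.01) and 1.93 (1.29 to 2.97), while Elavl4 and Elavl2, neuronal Hu proteins, were lower at 0.369 (0.236 to 0.578) and 0.594 (0.417 to 0.854).

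**Figure D3:**
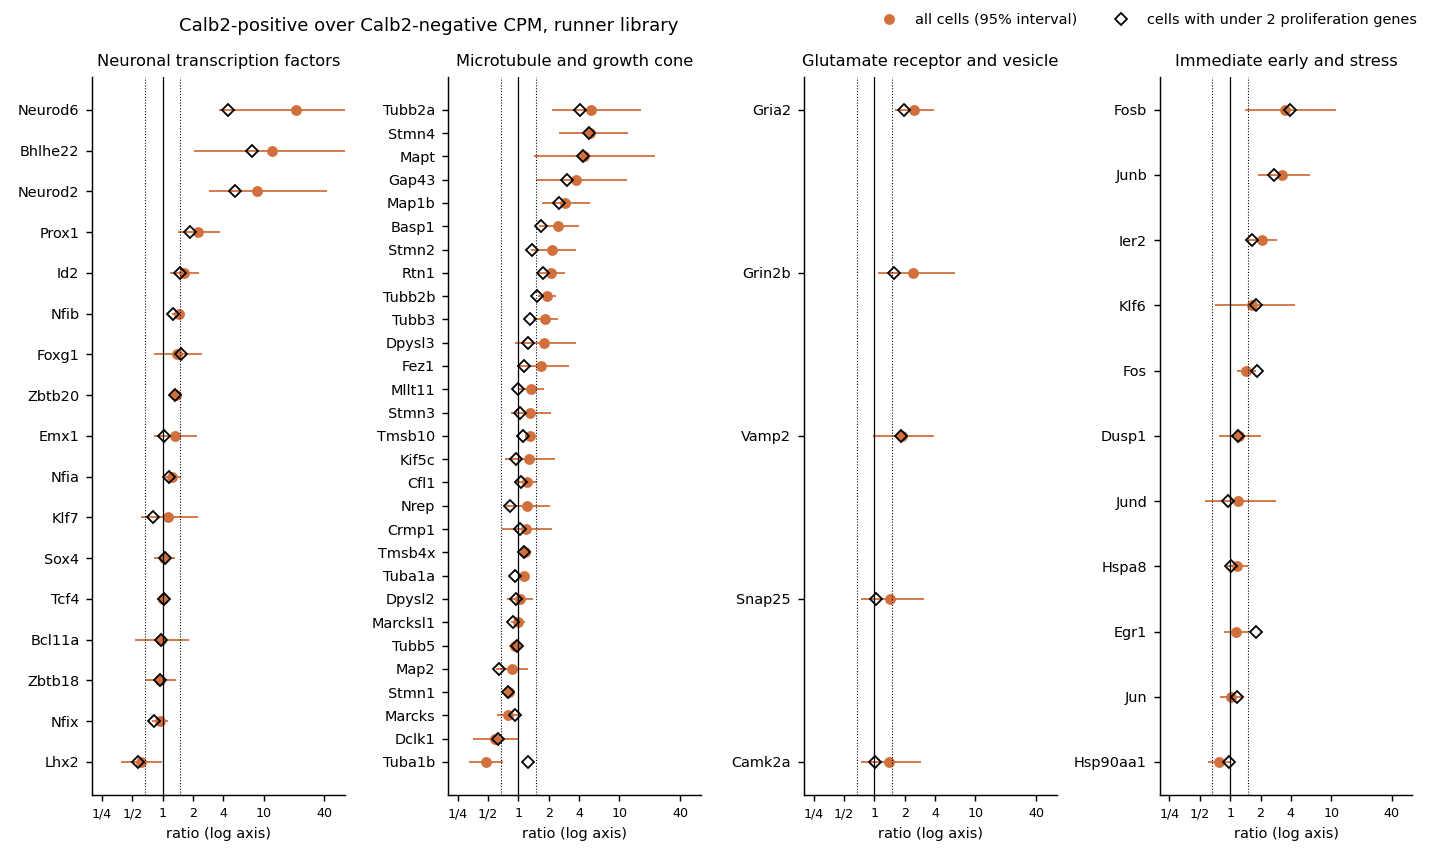
Ratio of Calb2-positive to Calb2-negative CPM in the runner library, on log axes, for the members of 4 gene lists that were measured and are reported; points with bars are all cells with exact 95% intervals (bars stop at the panel edge), diamonds are cells with fewer than 2 proliferation genes, and dotted lines mark 1.5-fold. Neurod6, Bhlhe22 and Neurod2 head the first panel. The Neurod6 diamond is drawn with a floor of 3 UMIs in the negative cells and is a lower bound. The Tuba1b diamond lies on the other side of 1 from its point.

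Most of the 12 lowest genes were genes of the cell cycle and of chromatin. Pclaf, a partner of the replication clamp PCNA, had 50 UMIs in the negative cells and 0 in the positive cells. Its ratio was 0.0202 with a floor of 3 UMIs in the positive cells, and the interval ran from 0 to 0.0258. Hmgb2, a chromatin protein of dividing cells, was at 169 CPM (121 to 229) against 1752 CPM (1477 to 2064), a ratio of 0.0965 (0.0664 to 0.137). Ccnd2, a cyclin of progenitors in early G1, was at 198 CPM (146 to 262) against 1764 CPM (1488 to 2077), a ratio of 0.112 (0.0792 to 0.157). Hmgn2 and H2afz, a nucleosome-binding protein and a histone variant, had 0.181 and 0.213. H2afv, Tipin, Dek, Ube2s, Fabp7, Dtymk and Knop1 lay between 0.240 and 0.351.

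Several of these genes were lower in the Calb2-positive cells when cells with at least 2 proliferation genes were left out, by smaller factors. Among non-cycling cells Ccnd2 had a ratio of 0.194 (0.128 to 0.293), Hmgn2 0.294 (0.236 to 0.367), Hmgb2 0.355 (0.210 to 0.613), H2afz 0.459 (0.343 to 0.617), Ube2s 0.509 (0.326 to 0.811) and H2afv 0.577 (0.379 to 0.897). Of the 5 measured intermediate progenitor genes 1 was past the limit upward and 2 downward, with a median log2 ratio of -0.31. For this and the next list, the shares over all genes were 15.7% upward and 14.7% downward. Of the 9 measured astrocyte and radial glia genes 3 were higher, with Aldoc at 3.37 (1.05 to 17.2), and 4 lower, with a median log2 ratio of -0.29 that turned to 0.09 among non-cycling cells. Among the lower, Sox2, a stem cell factor, had 16 UMIs against 20 and a ratio of 0.269 (0.130 to 0.547), and the fatty acid-binding protein Fabp7 of radial glia 16 against 21. Slc1a3 and Thrsp, genes of astroglia and stem cells, had 0.523 (0.338 to 0.819) and 0.356 (0.173 to 0.736). Eomes, the T-box factor of intermediate progenitors, was below the 30 UMI minimum with 10 UMIs against 16. Btg2, an antiproliferative gene of the last progenitor division, went the other way with 614 against 233 CPM, a ratio of 2.64 (1.63 to 4.51).

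Of 11 measured immediate early and stress genes, 4 were past the limit upward (15.7% over all genes), none was lower and 7 lay within it, with a median log2 ratio of 0.29. Among non-cycling cells 6 of 11 were past it (15.6% over all genes) and the median was 0.71. Fosb had a ratio of 3.50 (1.41 to 11.2), Ier2 2.07 (1.51 to 2.91) and Fos 1.43 (1.16 to 1.78), or 1.83 (1.37 to 2.47) among non-cycling cells. The tissue was dissociated with trypsin at 37 °C, a step that can induce such genes, and its part in the differences was not tested.

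Genes of other cell types were present at different levels. The 16 astrocyte and radial glia genes summed to 1864 CPM (1696 to 2044) in the runner members and 2402 CPM (2077 to 2762) in the negative cells, and only Hopx and Hes5 of them were at 0 in the members. Of 18 GABAergic interneuron genes, a neuron class that can contain calretinin, 13 were at 0 in the 120 runner cells, Slc32a1, Dlx2 and Lhx6 among them, and the list summed to 24.7 CPM (9.08 to 53.8) against 110 CPM in the negative cells. The 10 microglia genes summed to 301 CPM in the positive and 319 CPM in the negative cells, and the 10 oligodendrocyte genes to 433 and 319 CPM. Oligodendrocyte precursor genes summed to 28.9 and 12.3 CPM, endothelial and mural genes to 12.4 and 12.3 CPM, and Notch pathway genes to 45.4 and 147 CPM. Reln, Ndnf, Lhx1, Lhx5 and Trp73 were all at 0 in the runner members. Of the 9 Cajal-Retzius genes outside the rule, 6 were at 0 and the list summed to 78.3 CPM (47.2 to 122). Of the 11 genes of mossy cells and pyramidal neurons, 7 were at 0 and the list summed to 445 CPM (365 to 538) against 147 CPM (76.0 to 257), of which Neurod6, also in the granule neuron list, gave 256 and 12.3 CPM. The part of other cell types in these results was not tested. Scrublet, a doublet caller, marked 6 runner cells in all and none of the immature neurons.

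Nhlh2, a helix-loop-helix gene that the rule counted as a Cajal-Retzius gene, was present in the members without the rest of that set. It was detected in 36 of 120 runner Calb2-positive cells (46 UMIs) and in 2 of 39 Calb2-negative cells (2 UMIs), a ratio of 7.74 (2.02 to 65.8). As a gene of the rule it is described only. It had no UMI in the 5 control or the 5 aged Calb2-positive cells. That allows up to 477 and 461 CPM, above the 190 CPM of the runner members, so the libraries cannot be told apart in this gene. The 36 members with Nhlh2 had Calb2 at 2625 CPM (2276 to 3012), Tac2 at 2250 CPM (1928 to 2610) and Prox1 at 582 CPM (424 to 779). The other 84 had Calb2 at 2192 CPM (1972 to 2429), Tac2 at 1380 CPM (1207 to 1572) and Prox1 at 611 CPM (498 to 743). Median depths were 2158.5 and 2009 UMIs.

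Within the runner library the members differed with the amount of Calb2 they held. Tac2 stood at 392 CPM in cells with 0 Calb2 UMIs, 958 CPM with 1, 1318 CPM with 2 to 4 and 2258 CPM with 5 or more. Neurod2 was at 36.8, 215, 202 and 457 CPM over the same 4 sets, and Neurod1 at 588, 1172, 986 and 1353 CPM. Neurod6 and Prox1 were highest in the last 2 sets, with Neurod6 at 12.3, 78.2, 309 and 299 CPM and Prox1 at 270, 274, 677 and 700 CPM. Cells with 1 Calb2 UMI were thus close to the negative cells in Prox1 and above them in Tac2, Neurod1 and Chl1, which was at 24.5, 332, 487 and 439 CPM.

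Other genes went down over these sets. Ccnd2 was at 1764 CPM in cells with 0 Calb2 UMIs, 371 CPM with 1, 143 CPM with 2 to 4 and 159 CPM with 5 or more, and Hmgb2 at 1752, 293, 119 and 149 CPM. Elavl4 was at 502, 430, 119 and 121 CPM, so that cells with 1 Calb2 UMI resembled the negative cells in this gene. Sox11 stayed between 2902 and 3772 CPM. Pclaf was at 0 in each set with Calb2. The 4 sets had median depths of 1954, 2094, 1778.5 and 2314 UMIs, and 11, 1, 2 and 6 cells with at least 2 proliferation genes.

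**Figure D4:**
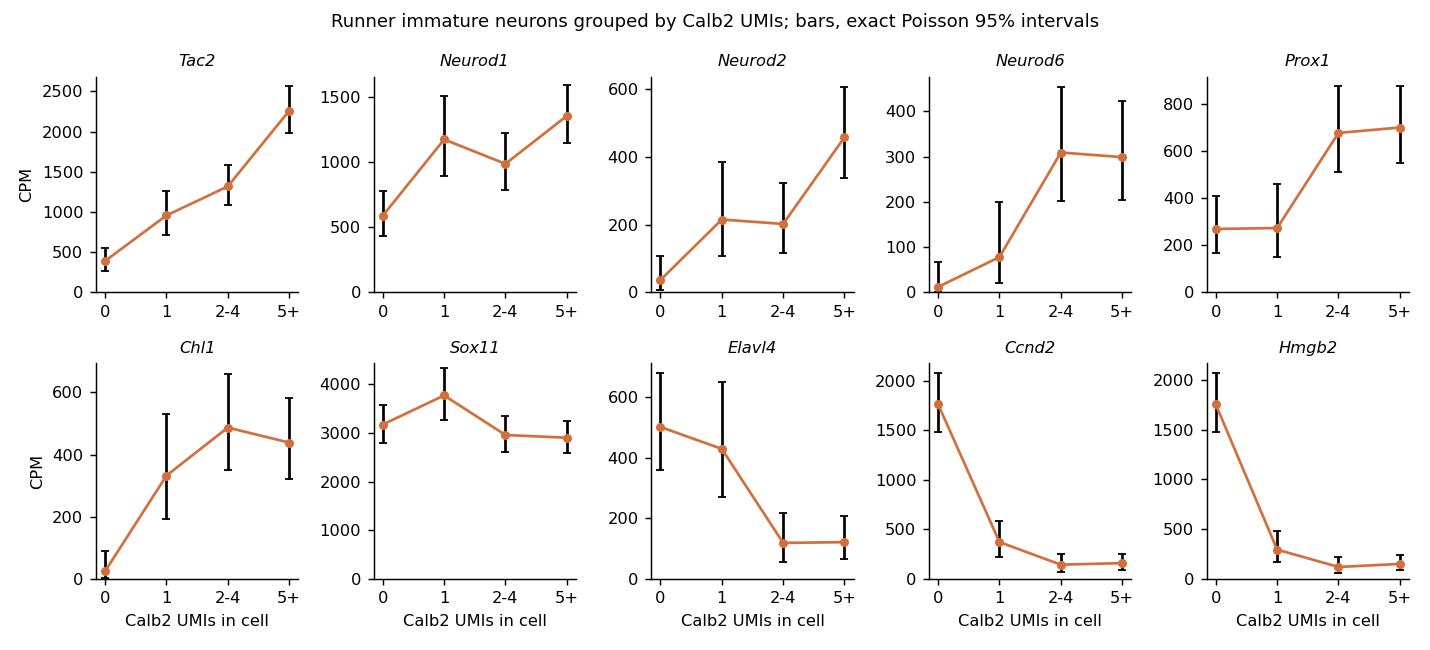
CPM of 10 genes in runner immature neurons grouped by their Calb2 UMIs (0, 1, 2 to 4, 5 or more; 39, 25, 48 and 47 cells), with exact Poisson 95% intervals. Tac2 is lowest at 0 and highest at 5 or more, Prox1 is near 270 CPM in the first 2 groups, and Ccnd2 and Hmgb2 are highest at 0.

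With 5 members each, the control and aged libraries gave values only and no fold. The 5 control members together held 7728 UMIs. In them Neurod1 was at 1812 CPM (990 to 3040), Prox1 at 518 CPM (141 to 1325) and Stmn4 at 1035 CPM (447 to 2040). Tac2, Neurod2 and Nhlh2 had no UMI, which allows up to 477 CPM for each. Of these genes, only Tac2 exceeded that level in the runner members. The 5 aged members held 7998 UMIs, with Prox1 at 1375 CPM (687 to 2461), Gria2 at 1375 CPM (687 to 2461) and Dcx at 1250 CPM (600 to 2299). Proliferation genes summed to 0 UMIs in the control members and to 3 UMIs in the aged members, and 1 aged member had 2 of these genes.

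In the control library, several genes that stood high in the runner members were also high in the 22 Calb2-negative cells, and others were lower. Gria2 was at 918 CPM (628 to 1296) in these cells, beside 755 CPM (649 to 872) in the runner Calb2-positive and 306 CPM (198 to 452) in the runner Calb2-negative cells. Prox1 was at 746 CPM (487 to 1093), Stmn4 at 459 CPM (262 to 746), Btg2 at 918 CPM (628 to 1296) and Bhlhe22 at 258 CPM (118 to 490). The runner members had 602 CPM of Prox1, 499 CPM of Stmn4, 614 CPM of Btg2 and 148 CPM of Bhlhe22. Tac2, at 143 CPM (46.6 to 335), and Neurod2, at 28.7 CPM (0.726 to 160), were low in the control Calb2-negative cells. Nhlh2 had no UMI there, which allows up to 106 CPM. The other genes of the 12 highest were counted in 34852 UMIs of these cells and 242525 UMIs of the runner members. Chl1 had 4 and 105 UMIs, Neurod6 5 and 62, Kdm6b 4 and 56, and Sh3bp5 2 and 35. Tubb2a had 2 and 77, Tubb4a 2 and 53, Junb 10 and 137, Gm17750 16 and 211, and Malat1 1875 and 17521. In the control Calb2-negative cells Hmgb2 and Ccnd2 were at 1004 CPM (699 to 1397) and 947 CPM (652 to 1330), between the levels of the 2 runner sets. Of these 22 cells, 1 had at least 2 proliferation genes. The Calb2-negative cells of the 2 libraries were therefore not alike, and the contrast found in the runner library cannot be assumed for control.

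**Figure D5:**
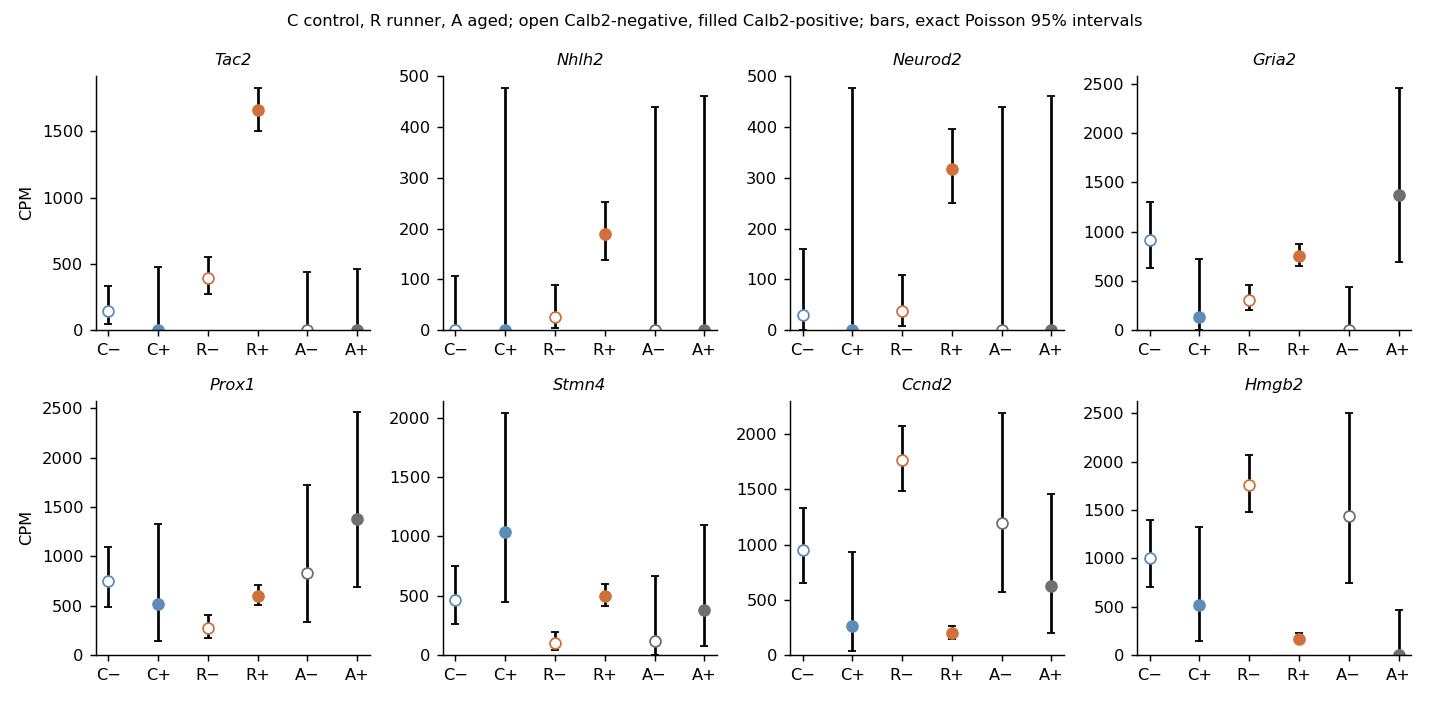
CPM of 8 genes in Calb2-negative (open) and Calb2-positive (filled) immature neurons of the control (C), runner (R) and aged (A) libraries, with exact Poisson 95% intervals. The plotted values of Tac2, Nhlh2 and Neurod2 are highest in the runner Calb2-positive cells. For Nhlh2 and Neurod2, the intervals of the control and aged Calb2-positive cells, with 0 UMIs, reach above that level. For Tac2, the shares of control and runner Calb2-positive cells with a UMI, not drawn here, have intervals that overlap. Gria2, Prox1 and Stmn4 in the control Calb2-negative cells lie near the runner Calb2-positive level.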

How the data were processed

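Dentate gyri were dissociated with trypsin and libraries made with the Chromium Single Cell 3' kit v2, per the labels' protocols. The values are raw UMI counts per gene and barcode, deposited by the authors as 1 table per library; Cell Ranger 2.1.1, Seurat 3.1.0 and GRCm38 are named in the submitters' processing notes. Annotation and cell-calling settings were not given in the sources used here. From the counts, cells were selected by the rule in the report, UMIs were summed per set and divided by the set's total (CPM). Ratios carry exact conditional binomial intervals, shares Clopper-Pearson and their differences Newcombe intervals, all 95%. A count of 0 opposite a larger count was set to a floor of 3 UMIs. No doublet was removed; Scrublet (Scanpy 1.11.5) was run as an alternative. The ratio calculation was tested on simulated data.

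The members, the 24 gene lists and the alternatives were chosen with earlier results of these data known. The named genes are those of the rule, list members with at least 30 UMIs whose interval leaves out 1 or that mark a stage, and the 12 highest and 12 lowest by interval bound; Eomes, Top2a, Ube2c, Calb1 and Tacr3, below that minimum, were added for their known roles. A member of the glutamate receptor and vesicle list is counted but not reported here. Python 3.11.15, SciPy 1.17.1 and pandas 2.3.3 were used. Alternatives were other limits for Calb2, Sox11, mitochondrial UMIs and detected genes, thinning to 1000 UMIs, cells weighted equally, all libraries summed and doublet removal.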

Additional observations from a re-analysis of the deposited data

Results flagged for a closer look

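Barcodes at or above the 10% mitochondrial limit were outside the comparisons. Among them, 11 runner barcodes met the remaining limits for immature neurons, and 8 of these, 72.7% (39.0% to 94.0%), had a Calb2 UMI, a share that lay above the 2 of 8 (25.0%, 3.19% to 65.1%) of the control library. Their median depth was 2227 UMIs in runner and 1131.5 in control, and the intervals overlapped. Of all 1990 runner barcodes above the limit 3.67% had a Calb2 UMI, and of the 1789 in control 2.52%. No aged barcode above the limit met the rule.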

How the results depend on the processing

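Thinning to 1000 UMIs put the runner share of Calb2-positive immature neurons at 59.6%, and asking for at least 2 Calb2 UMIs put it at 59.7%; the other 28 alternatives for the 3 shares stayed within the counting interval. After thinning, 83 of 834 genes compared were at least 1.5-fold higher and 77 lower. With a minimum of 60 UMIs per gene it was 102 and 91 of 859, beside 291 and 271 of 1848 in the main comparison. The shares of genes past the limit were thus smaller, and not only their numbers. Of 189 alternatives for the 24 named genes none reversed the direction, 25 moved the ratio and 3 took it inside the 1.5-fold limit: after thinning Malat1 was at 1.36 and Gm17750 at 1.49, and with the libraries summed Bhlhe22 was at 1.45. With at least 2 Calb2 UMIs, the ratio of Chl1 was 3.21 instead of 17.7 and that of Kdm6b 2.35 instead of 18.8, which was 3.22 with the libraries summed. After thinning, Stmn4 was at 2.50, Tubb2a at 1.67, Hmgb2 at 0.176 and H2afz at 0.336. Of 88 alternatives for 10 list medians, 13 moved the median and 6 changed its sign, all in lists that were divided or small. The glutamate receptor and vesicle median of 1.08 was 0.59 after thinning, 0.67 with the libraries summed and 0.70 with at least 2 Calb2 UMIs. The RNA-binding median of -0.19 was 0.18 after thinning, 0.35 at 60 UMIs and 0.20 without the mitochondrial limit, the astrocyte and radial glia median of -0.29 was 0.16 at 60 UMIs and 0.09 among non-cycling cells, and the neuropeptide median of 0.43 was -0.04 after thinning. No paired analysis was possible because each group has 1 library. For the same reason no library could be left out within a group, and spread between animals is unknown. Leaving out the runner library would leave 10 members.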
